A study of Mus musculus with 12 samples.

Results

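In cultured neurons of the dorsal root ganglion (DRG), 10 transcription factors that define or divide the sensory neuron lineages were followed in ribosome-associated RNA and in total RNA. They were found by gene symbol in the deposited counts, and the rule that finds them uses no measured value. The table of the libraries labelled Cre+ lists 7 of the 10 factors among 9112 genes, and the table of the libraries labelled Cre- lists all 10 among 14177 genes. Shox2, Pou4f2 and Pou4f3 have no row in the Cre+ table, where no gene has a library under 5 counts, so no level is given for them there.

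All 4 groups came from adult male mice of 3 to 6 months by their labels (the methods give a younger age) that were homozygous for the Rpl22HA allele, the RiboTag design in which Cre recombinase switches on a hemagglutinin (HA) tag on the ribosomal protein Rpl22. One pair of groups also carried Runx3-Cre (Rpl22HA/HA Runx3-Cre+), which the study used to tag proprioceptive neurons. The other pair were littermates without Cre (Rpl22HA/HA Runx3-Cre-), sequenced as a background control. Each sample pooled the neurons of 5 mice from all ganglia, purified on Percoll and kept for 24 h in F12 medium with serum. The sequenced fractions were the HA pull-down and an input that used 10% of each lysate, with 3 libraries per fraction and genotype, 12 in all. Depth over the listed genes was 8886308 to 18633365 counts a library. Pairs of Cre+ pull-downs correlated across genes with r of 0.695 to 0.839 and so stood further apart than pairs in the other groups, where the lowest r was 0.916. Runx3, the gene that drives Cre, was enriched in the pull-down of the libraries labelled Cre- and was not called in that of the Cre+ libraries, so every genotype named here is the label as deposited. The Cre+ pull-down columns also bear names that match the titles of the Cre- pull-down samples apart from punctuation. Whether the genotype labels of the tables, or of the pull-downs alone, were exchanged was not tested. An exchange of whole tables would swap Cre+ and Cre- in each result and reverse the sign of each difference. With an exchange of the pull-downs alone, the inputs would keep their labels. Each fold change given here would then set a pull-down against the input of the other genotype. The paper reports significant overlap of ribosome-bound RNA between Runx3-Cre+ cultures and Runx3-Cre ganglia, and poorer consistency for Cre- cultures. It also reports ribosomal RNA as undetectable in ganglion pull-downs from animals without Cre.

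These factors act in a known order. Isl1, a LIM homeodomain factor, and Pou4f1 (Brn3a), a POU homeodomain factor, are expressed by nearly all sensory neurons and end the neurogenic programme, while Pou4f2 (Brn3b) and Pou4f3 (Brn3c) are relatives best known from retinal ganglion cells and inner ear hair cells. Runx3, a Runt domain factor, keeps the neurotrophin-3 receptor Ntrk3 and holds down Ntrk2 in proprioceptors, where the ETS factor Etv1 (Er81) is needed for their connections to motor neurons. Runx1 is the counterpart of Runx3 in non-peptidergic nociceptors, and Prdm12 is a PR domain regulator without which nociceptors do not form. Shox2 and Maf (c-Maf) mark mechanoreceptors, in which Shox2 favours Ntrk2 and Maf is needed for the touch receptors of the skin.

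The promoters of the Runt domain genes are shown because their transcripts went in opposite directions in the pull-downs labelled Cre-. RUNX proteins bind the letters TGTGGT, which read ACCACA on the other strand. RefSeq promoters (GRCm38.p6, 250 bases before to 50 after a start site) were held for 8 of the 10 genes in 11 windows, of which 3 contain the motif on either strand, against 16.8% of the 32851 promoters of the same length. The distal promoters of Runx3 and Runx1 each contain it as a pair, and the second promoters of both genes contain none. The lines give each site 5′ to 3′ on the strand of its gene, with the motif in capitals.
Runx3 distal promoter: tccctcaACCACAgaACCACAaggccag
Runx1 distal promoter: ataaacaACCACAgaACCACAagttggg
Etv1 upstream promoter: tggagcgTGTGGTgggtgga
The Runx3 sequence lies at chr4:135120504-135120531 on the plus strand, with its first motif 134 bases upstream of the start site. That of Runx1 lies at chr16:92826026-92826053 on the minus strand, with its first motif 28 bases downstream of the start site. The single motif of Etv1, on the plus strand at chr12:38779883-38779902, begins 192 bases upstream. The pair with its spacing, which is ACCACA, any 2 bases and ACCACA again on either strand, occurred in 7 of the 32851 promoters (0.0213%). A match of letters describes the sequence and does not show binding.

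In the inputs, which hold the RNA of all cultured cells, Runx1, Pou4f1 and Prdm12 were the most abundant factors, Isl1 and Etv1 lay below them, and the other listed factors were low. Levels between genes are compared as normalized counts per kilobase of the listed transcript. A normalized count is a count per 1000000 in a library whose size was adjusted with TMM. Counts cover a whole gene, whose exons together can exceed that transcript, so the order between genes depends on the length used. For Runx1 all exons cover 12025 bases and the transcript 4738, while for Prdm12 both are 2471. In the Cre- inputs Runx1 had 52.4 ± 6.07 (SD, n = 3), Pou4f1 46.5 ± 4.33 and Prdm12 46.1 ± 8.52 normalized counts per kilobase, and their ranges overlapped. Isl1 with 14.3 ± 4.29 and Etv1 with 11.1 ± 3.84 followed below them and overlapped each other. Maf stood alone at 3.84 ± 0.25, below Etv1 and above the rest. The lowest were Pou4f2 (1.19 ± 0.29), Shox2 (0.97 ± 0.19), Pou4f3 (0.96 ± 0.28) and Runx3 (0.81 ± 0.37), which overlapped from each to the next. The Cre+ inputs gave the same order for the 7 listed factors, from 50.5 ± 13.3 for Runx1 to 1.05 ± 0.41 for Runx3.

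The order in the pull-downs labelled Cre- was different. Per kilobase of the listed transcript, Etv1 was now the most abundant factor with 71.5 ± 15.4 normalized counts. Its lowest library (56.3) lay above the highest of Pou4f1 (47.0). That rank depends on the length used. All exons of Etv1 cover 13296 bases and its transcript 6576, against 4672 and 4445 for Pou4f1. Runx3 rose in the order from the last to the sixth place with 9.29 ± 3.95, next to Prdm12 (19.3 ± 10.1), whose range it overlapped. Runx1 had 26.0 ± 3.25. In the pull-downs labelled Cre+ the order stayed close to that of the input, led by Runx1 (71.0 ± 10.6), Prdm12 (52.8 ± 17.9) and Pou4f1 (36.2 ± 14.4), with Etv1 at 9.73 ± 3.05 and Runx3 last at 3.08 ± 2.67.

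**Figure D1:**
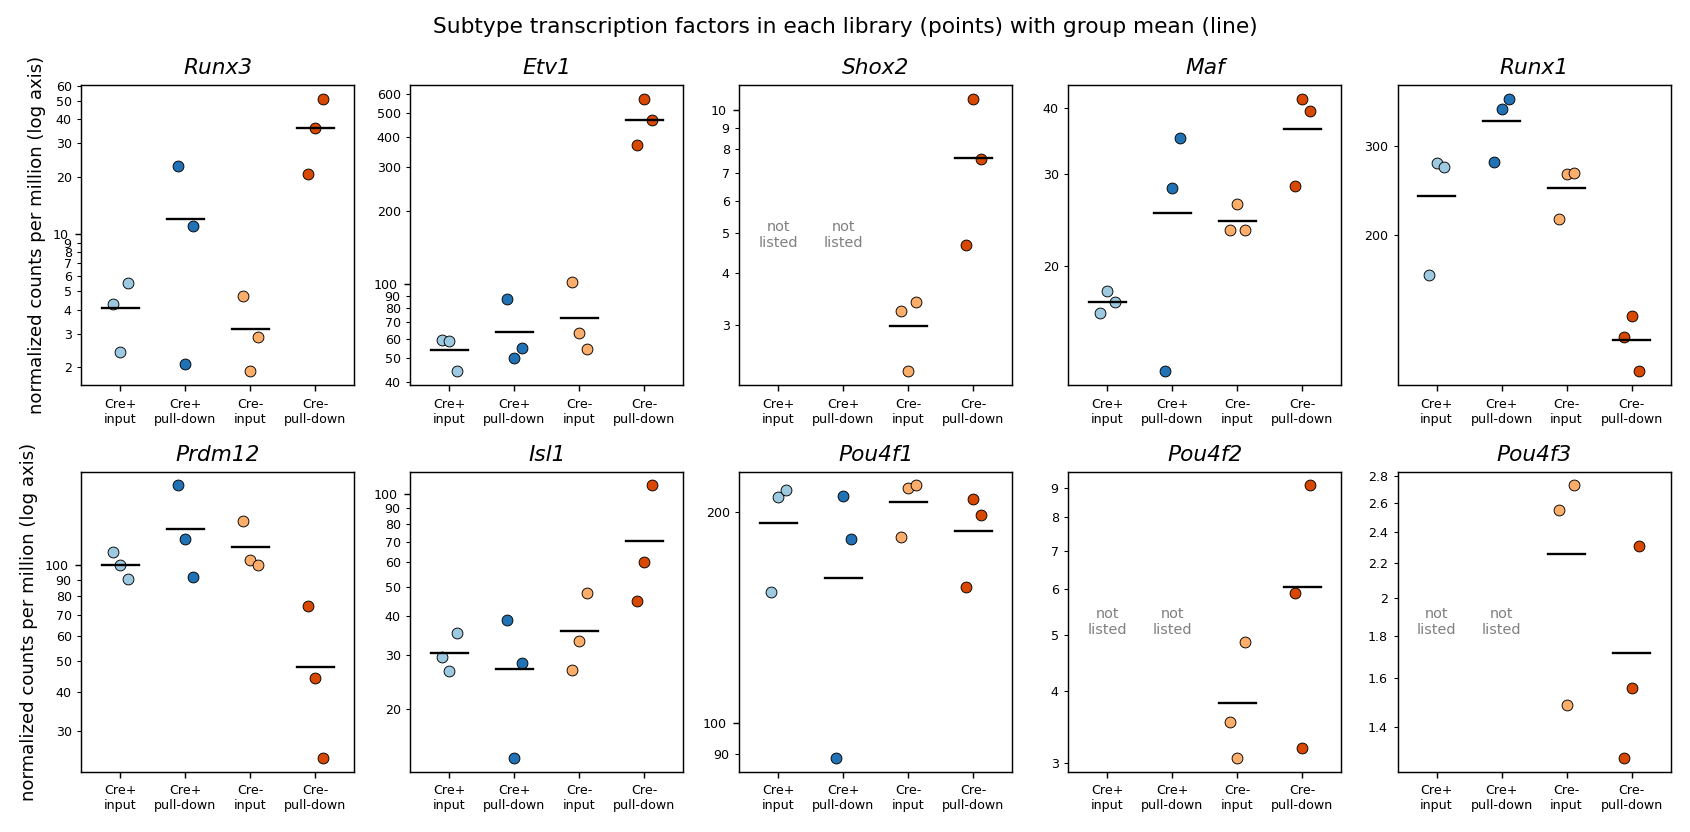
Normalized counts of the 10 factors (log axis, one panel per gene) in the 3 libraries of each group, as points, with the mean as a line. Runx3 and Etv1 lie between 20.8 and 573 in the Cre- pull-downs, above all their inputs, while Runx1 and Prdm12 lie below theirs. Genes without a row in the Cre+ table are marked as not listed.

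The comparison asks which transcripts the HA pull-down holds more often than the culture as a whole, and by their label the Cre- littermates should have no tagged ribosomes. Among the libraries labelled Cre-, 3 of the 10 factors were enriched (Runx3, Etv1 and Shox2) and 2 were depleted (Runx1 and Prdm12) at FDR below 0.1 and a 2-fold change in edgeR's quasi-likelihood test. All 10 factors passed the filter on low expression. Among all 11526 genes tested, 6.06% were enriched and 5.93% were depleted (12.0% in all). The median log2 fold change of the 10 factors was 0.62, against -0.04 over all genes. In RNA pooled from a culture, fewer cells of a type and less RNA of a gene per cell cannot be told apart.

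Runx3 (chromosome 4, 135120645 to 135177990 of GRCm38) had 20.8, 36.0 and 51.4 normalized counts in the Cre- pull-downs, from 372, 532 and 691 counts. Its Cre- inputs had 4.70, 1.90 and 2.88, from 48, 23 and 38 counts. Each pull-down was thus several times above the highest input, an 11.5-fold enrichment (log2 fold change 3.52 with a standard error, SE, of 0.43 and FDR 0.000466). The enrichment was called under each of the 13 alternatives run, with log2 fold changes from 3.19 to 3.91.

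Etv1 (chromosome 12, 38780082 to 38870483) had 370.1, 573 and 468 normalized counts in the Cre- pull-downs and 101.8, 63.2 and 54.4 in the Cre- inputs. The groups were far apart, since the lowest pull-down was more than 3-fold above the highest input. The log2 fold change was 2.69 (SE 0.26, FDR 0.000123), or 6.44-fold, and it was called under all 13 alternatives, with values from 2.44 to 3.00. Of all genes tested 18.2% had every Cre- pull-down above every input, and so had 4 of the 10 factors, namely Runx3, Etv1, Shox2 and Maf.

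Of the mechanoreceptor factors, Shox2 was called and Maf was not. Shox2 (chromosome 3, 66971723 to 66981771), which shares 4.62% of its exon bases with the antisense gene Rsrc1, had 4.69, 10.6 and 7.59 normalized counts in the Cre- pull-downs and 3.23, 2.31 and 3.41 in the inputs. Its log2 fold change of 1.35 (SE 0.47, FDR 0.0722) rested on low counts, between 28 and 157 per library. The call was lost when any 1 of 5 libraries was left out (Cre- input replicates 1, 2 and 3 and Cre- pull-down replicates 2 and 3), where its FDR ranged from 0.126 to 0.266, and with a replicate block or scaling by library size alone. Maf (chromosome 8, 115703253 to 115706894), which shares 5.34% of its exon bases with the antisense gene Gm15655, had 28.5, 41.6 and 39.4 in the pull-downs and 23.4, 26.3 and 23.5 in the inputs, and was not called (log2 fold change 0.58, SE 0.23, FDR 0.117).

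The nociceptor factors went the opposite way. Runx1 (chromosome 16, 92601466 to 92826074) had 125.1, 137 and 107 normalized counts in the Cre- pull-downs and 215, 265 and 265 in the inputs, and its log2 fold change was -1.01 (SE 0.17, FDR 0.00255). Every pull-down lay below every input, as for 18.6% of all genes, and the fold of 2.02 is just past the limit of 2. Without Cre- input replicate 2, Cre- input replicate 3 or Cre- pull-down replicate 3 its log2 fold change was -0.96, -0.96 and -0.91, short of that limit at FDR of 0.013 to 0.0182, and with DESeq2 it was -0.99.

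Prdm12 (chromosome 2, 31635026 to 31655795), which shares 8.09% of its exon bases with Gm13425 on the other strand, had 74.3, 44.3 and 24.7 normalized counts in the Cre- pull-downs and 138, 103.7 and 99.98 in the inputs. No pull-down reached an input, and the values spread 3-fold among the pull-downs. The log2 fold change was -1.25 (SE 0.33, FDR 0.025), and without Cre- pull-down replicate 3 it was -0.93 (FDR 0.0421), short of 2-fold.

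Of the pan-sensory factors, Isl1 (chromosome 13, 116298270 to 116309688) had 44.8, 60.1 and 107 normalized counts in the Cre- pull-downs and 26.8, 33.2 and 47.8 in the inputs. The groups overlapped at 1 library each, and its log2 fold change of 0.97 (SE 0.32, FDR 0.063) passed the FDR and missed the 2-fold limit. Leaving out Cre- pull-down replicate 1 gave 1.23 and leaving out Cre- input replicate 3 gave 1.24, past both limits. Leaving out Cre- pull-down replicate 3 gave 0.56 (FDR 0.241), and the FDR also rose past 0.1 without Cre- input replicate 1 (0.193), Cre- input replicate 2 (0.174) or Cre- pull-down replicate 2 (0.104). Pou4f1 (chromosome 14, 104461675 to 104468118) had 156, 209 and 198 in the pull-downs and 184, 217 and 219 in the inputs. These ranges overlapped broadly, and the log2 fold change was -0.14 with a 95% interval from -0.47 to 0.19 (FDR 0.622).

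Its relatives were near the lower end of what was counted, and neither was called. Pou4f2 (chromosome 8, 78433009 to 78436647) had 5.91, 3.18 and 9.08 normalized counts in the Cre- pull-downs and 3.53, 3.05 and 4.85 in the inputs, a log2 fold change of 0.66 (SE 0.50, FDR 0.403). Pou4f3 had 1.28, 1.56 and 2.31 against 2.55, 1.49 and 2.73, from 18 to 36 counts, a log2 fold change of -0.40 (SE 0.61, FDR 0.709). Their 95% intervals ran from -0.32 to 1.65 and from -1.60 to 0.81 on the log2 scale, and each included 0.

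In the libraries labelled Cre+, none of the 7 listed factors was called in edgeR's quasi-likelihood test, DESeq2 or edgeR's exact test, and 0 of the 7 had an unadjusted p under 0.05. Among all 8947 genes tested 7.67% were called, with 5.17% enriched and 2.49% depleted. Without any 1 of the Cre+ inputs 0 genes were called, though 1154 to 1419 had an unadjusted p under 0.05, so each gene named below as enriched or depleted in Cre+ loses its call there. The median log2 fold change of the 7 factors was 0.38, against 0.08 over all genes.

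Runx3 had 22.8, 2.07 and 11.1 normalized counts in the Cre+ pull-downs, from 205, 17 and 96 counts, and 4.28, 2.39 and 5.55 in the Cre+ inputs. Pull-down replicates 1 and 3 lay above every input, and replicate 2 lay below every input. The log2 fold change was 1.55 (SE 0.86, FDR 0.302), with a 95% interval from -0.13 to 3.24. Without Cre+ pull-down replicate 1 it was 0.73 and without replicate 2 it was 2.07, and neither was called. Runx3 therefore varied more among the Cre+ pull-downs (coefficient of variation 86.6%) than among the Cre- pull-downs (42.5%).

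Etv1 had 86.9, 49.99 and 54.95 normalized counts in the Cre+ pull-downs and 59.3, 58.6 and 44.1 in the inputs. These groups overlapped, with a log2 fold change of 0.24 (SE 0.41, FDR 0.752) that was -0.22 with scaling by library size alone. Prdm12 had 179, 121 and 91.8 in the Cre+ pull-downs and 110.3, 100.6 and 90.5 in the inputs, a log2 fold change of 0.38 (SE 0.34, FDR 0.526), which was -0.08 with scaling by library size alone.

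Runx1 was the only one of the 7 factors with every Cre+ pull-down (279, 357 and 373 normalized counts) above every Cre+ input (166, 278 and 273), as 15.5% of all genes had. The margin between the lowest pull-down and the highest input was under 1 normalized count, and its log2 fold change was 0.49 (SE 0.29, FDR 0.333). Maf had 12.7, 28.2 and 35.1 in the Cre+ pull-downs against 16.3, 17.9 and 17.2 in the inputs, with pull-down replicate 1 lowest of all 6 libraries. Isl1 had 38.9, 13.8 and 28.2 against 29.4, 26.6 and 35.3, and Pou4f1 had 88.9, 211 and 183 against 154, 210.3 and 216. For these 3 factors the pull-downs overlapped the inputs, with log2 fold changes of 0.56, -0.18 and -0.26 (FDR from 0.588 to 0.881).

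**Figure D2:**
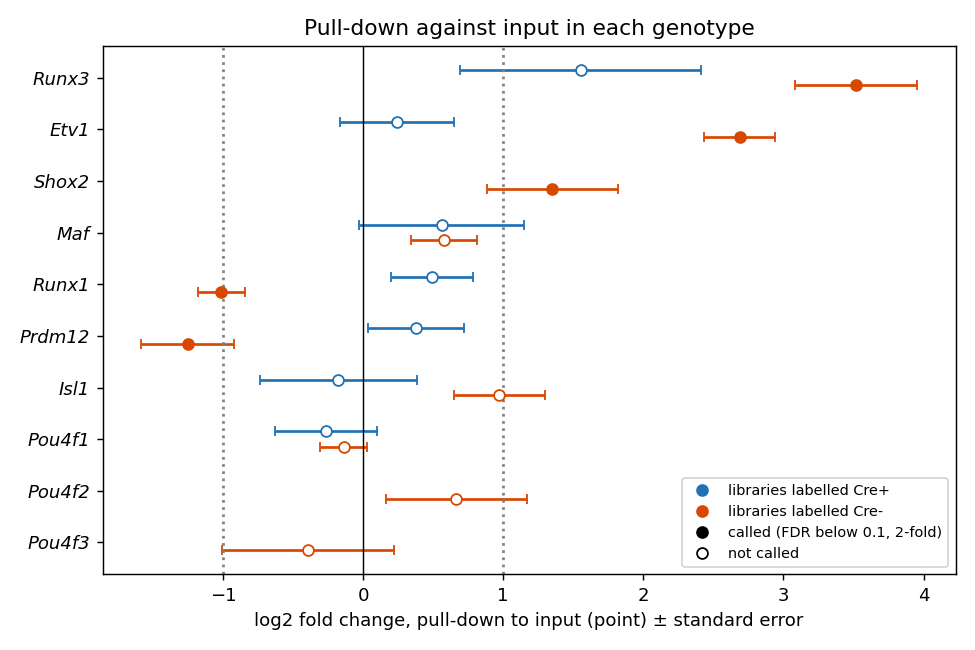
Enrichment of each factor as log2 fold change of the pull-down over the input, with its SE as a bar, in the libraries labelled Cre+ (blue) and Cre- (orange). Filled points are called, and dotted lines mark 2-fold. The 5 called points are those of Runx3, Etv1, Shox2, Runx1 and Prdm12 in the Cre- libraries, and the Cre+ values run from -0.26 to 1.55.

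The difference between both enrichments was tested in one fit of all 12 libraries, over 9006 genes of which 4.22% were called (2.23% more and 1.99% less enriched in Cre+). Of the 7 factors, 2 differed. Etv1 was enriched less in the libraries labelled Cre+ by -2.41 on the log2 scale (SE 0.42, FDR 0.0186), and this was called under all 16 alternatives (-2.73 to -2.24). Runx1 went the other way, with a difference of 1.54 (SE 0.33, FDR 0.041), which was not called without Cre- input replicate 2 (FDR 0.144), Cre- input replicate 3 (FDR 0.129) or Cre- pull-down replicate 3 (FDR 0.15).

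The remaining factors did not pass. Runx3 differed by -1.93 (SE 0.99, FDR 0.297), and without Cre+ pull-down replicate 1 by -2.78 (FDR 0.072), which was called. Prdm12 differed by 1.66 (SE 0.51, FDR 0.11). It was called without any single Cre+ pull-down (FDR from 0.0577 to 0.0864), without Cre- pull-down replicate 1 (FDR 0.057) and with DESeq2 (FDR 0.0301). Isl1 differed by -1.12 (FDR 0.327), with a 95% interval from -2.32 to 0.07. Pou4f1 and Maf differed by -0.09 (95% interval from -0.89 to 0.72) and 0.02 (from -1.11 to 1.15).

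Ratios of 2 factors within a library do not depend on how libraries are scaled, and the pairs given here were chosen after the values were seen. The ratio of Runx1 to Runx3, in counts per kilobase, was 37.5, 114 and 75.4 in the Cre- inputs and 4.94, 3.13 and 1.70 in the Cre- pull-downs. It was 31.9, 95.6 and 40.3 in the Cre+ inputs and 10.1, 141 and 27.6 in the Cre+ pull-downs. The Cre- pull-downs thus lay below every other library, while the Cre+ pull-downs spanned their inputs. The ratio of Prdm12 to Etv1 was 3.61, 4.36 and 4.90 in the Cre- inputs and 0.53, 0.21 and 0.14 in the Cre- pull-downs. In the Cre+ libraries it was 4.95, 4.57 and 5.46 in the inputs and 5.47, 6.43 and 4.45 in the pull-downs, with no separation of the groups. No test is given for these ratios.

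**Figure D3:**
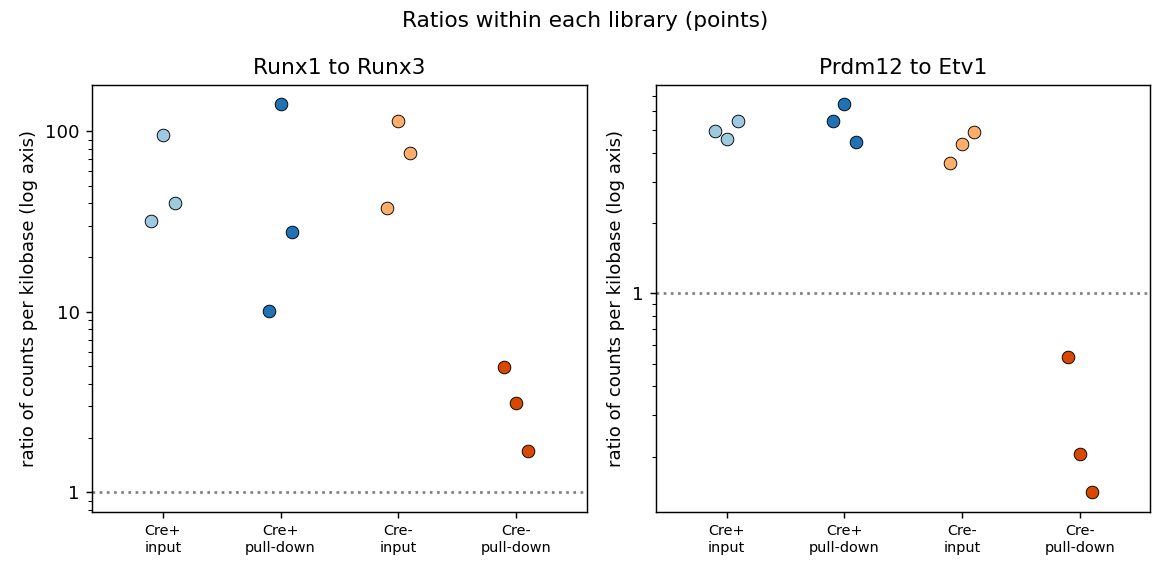
Ratio of Runx1 to Runx3 (left) and of Prdm12 to Etv1 (right), in counts per kilobase on log axes, with 1 point per library in the 4 groups and a dotted line at a ratio of 1. The Cre- pull-downs lie between 1.70 and 4.94 on the left and between 0.14 and 0.53 on the right, below the other 9 libraries in both panels.

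Transcripts of the proteins that these factors work with were counted as a list. Of 12 cofactors, 11 were tested in each genotype, and in the libraries labelled Cre- 1 was enriched and 1 depleted (against 6.06% and 5.93% of all genes), with a median log2 fold change of 0.21. Hipk2, a kinase that binds Pou4f1, was enriched by 1.70 (SE 0.16, FDR 0.000127), and Ldb2, which bridges LIM domain factors, was depleted by -1.71 (SE 0.43, FDR 0.0198). Cbfb, the obligate partner of the Runx proteins, had 250.1 ± 28.3 normalized counts (SD, n = 3) in the Cre- inputs and 364 ± 195 in the pull-downs, and was not called (FDR 0.272). For Cre+, 1 of the 11 was enriched (median -0.04, against 5.17% of all genes enriched), the acetyltransferase Ep300 with a log2 fold change of 1.77 (SE 0.35, FDR 0.045), which also differed from Cre- (1.43, FDR 0.0872).

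Of 9 family relatives of the factors, 7 were tested in Cre- and 5 in Cre+, and 0 were called in either by edgeR's quasi-likelihood test, beside 12.0% and 7.67% of all genes. At an unadjusted p under 0.05 there was 1 in Cre- (Etv5) and 0 in Cre+. The median log2 fold change was -0.48 and -0.14. Runx2, the third Runt domain gene, changed by -0.59 (SE 0.36, FDR 0.296) in the Cre- and by -0.14 (SE 0.71, FDR 0.925) in the Cre+ libraries. Etv5, an ETS factor close to Etv1, changed by -0.66 (FDR 0.0351) in the Cre- libraries, which is under 2-fold.

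Of 24 other transcription factors of sensory neurons, 14 were tested in each genotype, 13 of them the same genes, since Cux2 was tested in Cre- and Tbx2 in Cre+ only. Of these, 2 were enriched in the libraries labelled Cre-, Cux2 by 2.29 (SE 0.52, FDR 0.0122) and Onecut2 by 1.302 (SE 0.25, FDR 0.00563), with a list median of -0.10 and 6.06% of all genes enriched. With the Cre+ label 2 were enriched, Onecut2 by 1.89 (SE 0.45, FDR 0.0636) and Klf7, a Krüppel-like factor, by 1.04 (SE 0.26, FDR 0.0717). The list median there was 1.02, with 5.17% of all genes enriched, and 13 of the 14 had a positive value. The difference between both enrichments had a median of 1.06 over the 14 genes tested in Cre+, against 0.13 over all genes, and 1 was called (Klf7, 1.29, FDR 0.0389), beside 4.22% of all genes.

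Known target genes were also counted. Of 16, 14 were tested in the libraries labelled Cre-, where 1 was enriched and 4 were depleted (against 6.06% and 5.93% of all genes), with a median log2 fold change of -0.94. Ntrk3, which Runx3 keeps active in proprioceptors, was enriched by 2.05 (FDR 0.000118). Of the depleted genes, the neuropeptide gene Calca fell by 2.50 (FDR 0.000383) and the ATP-gated channel gene P2rx3 by 1.39 (FDR 0.00154) on the log2 scale. For Cre+, 12 were tested with a median of 0.12, Ntrk3 was enriched by 2.19 (FDR 0.0269) and Calca was depleted by -1.84 (FDR 0.0593), beside 5.17% and 2.49% of all genes. None of the 12 was called in edgeR's quasi-likelihood test of the difference (4.22% of all genes), with 4 at an unadjusted p under 0.05, where 1757 of all 9006 genes had one. All 12 values of the difference were positive, with a median of 0.95 against 0.13 over all genes.

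**Figure D4:**
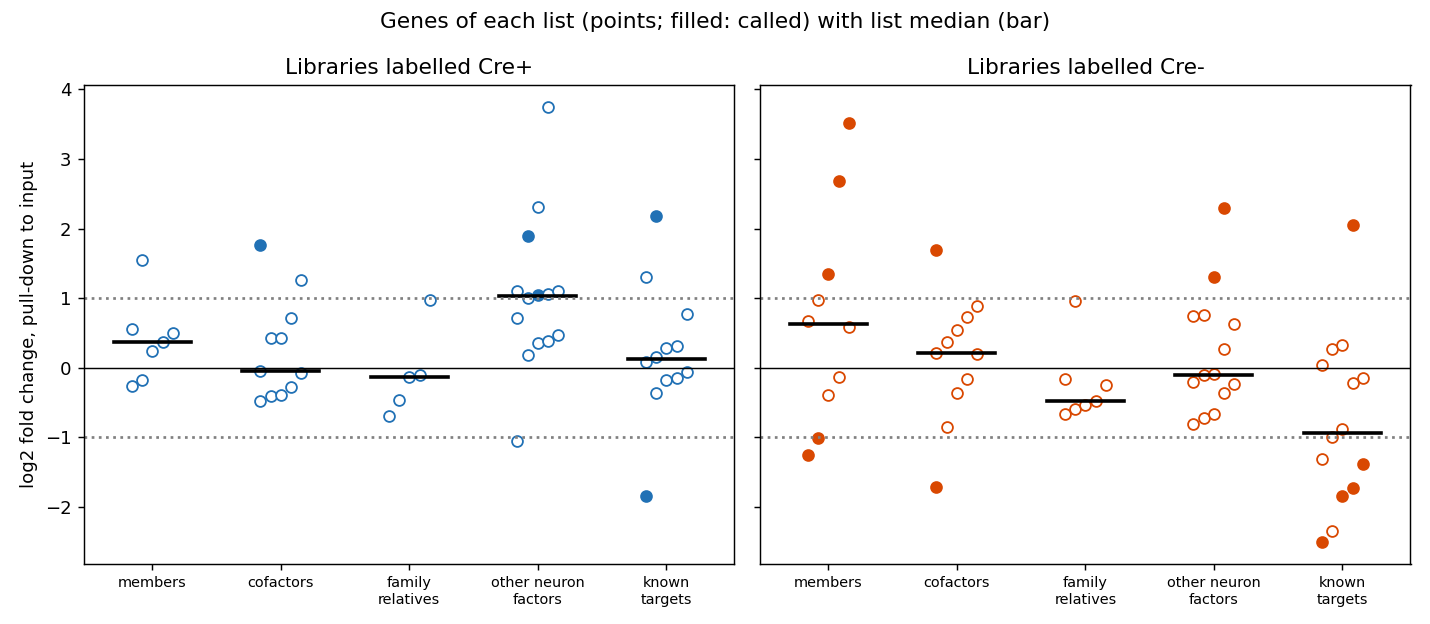
Log2 fold change in the pull-down over the input for each tested gene (points, filled where called) of the 10 factors, their cofactors, family relatives, other sensory neuron factors and known targets, with the list median as a bar and dotted lines at 2-fold. The medians of the known targets are 0.12 (Cre+) and -0.94 (Cre-), and those of the other sensory neuron factors 1.02 and -0.10.

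Markers of neurons and of other cells were read beside these values. The summed level of 11 pan-neuronal genes was 21689 to 29687 normalized counts in the inputs, against 2905 to 4657 for the glial genes listed in each table (6 of 11 for Cre+, 10 of 11 for Cre-). In the Cre- pull-downs the pan-neuronal sum was 49230 to 56775 and the glial sum 1651 to 2033, and in the Cre+ pull-downs they were 22639 to 24960 and 1851 to 2720. These sums rest on few genes. Of the 11 pan-neuronal genes 3 were enriched in the Cre- pull-downs (Snap25, Nefm and Nefh) and Gap43 was depleted by -1.75, beside 6.06% and 5.93% of all genes, with a median log2 fold change of 0.14. In the Cre+ pull-downs 0 of the 11 were enriched and 2 were depleted, Tubb3 by -1.19 (FDR 0.0471) and Uchl1 by -1.85 (FDR 0.0373), beside 5.17% and 2.49% of all genes. Of 8 glial genes tested in Cre- 2 were depleted, Pmp22 (2910 ± 813 in the Cre- inputs and 887 ± 240 in the pull-downs, SD, n = 3) and Fabp7, while S100b had a log2 fold change of 0.69 (FDR 0.0143), under 2-fold. In Cre+ 0 of the 6 glial genes tested were called by edgeR's quasi-likelihood test, with 1 at an unadjusted p under 0.05. Of 5 fibroblast genes tested in Cre- 0 had a positive value. Col1a1 was the 1 depleted among them, by -1.34 (FDR 0.0387), beside 5.93% of all genes. The sum of the 7 listed fibroblast genes was 25.5 to 97.5 in the Cre- pull-downs and 83.3 to 101 in the Cre- inputs. In Cre+ 0 of the 4 tested were called by the same test, beside 7.67% of all genes, and 2 had a positive value. Of 5 proprioceptor markers, 4 were enriched in the Cre- pull-downs, among them Pvalb by 2.98 (FDR 6.92e-05) and Spp1 by 2.68 (FDR 0.000118), and 1 of 4 in the Cre+ pull-downs (Ntrk3), beside 6.06% and 5.17% of all genes enriched. Of the 4 proprioceptor markers tested for the difference, 2 had a positive value and 1 was called, beside 4.22% of all genes. It was Spp1, which differed by -3.60 (FDR 0.00293) and had a log2 fold change of -0.95 in Cre+ (FDR 0.215). Pvalb, a defining marker of proprioceptors, has no row in the Cre+ table.

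Runx1, Runx3 and Maf are also expressed in blood and immune cells. The macrophage sum was 50.3 to 79.5 normalized counts in the Cre- pull-downs and 54.9 to 128 in the Cre- inputs, over 9 of 11 markers. Of 5 macrophage markers tested in Cre- 1 was enriched, beside 6.06% of all genes. It was the myeloid integrin gene Itgam, by 1.28 (FDR 0.0164). Of the 5, 4 had a positive value, and Cd68 had -1.04 (FDR 0.181). In the Cre+ libraries 2 of the 11 markers are listed, with a sum of 4.85 to 112 in the pull-downs and 25.8 to 68.2 in the inputs. Of 8 lymphoid markers 1 is listed, Lck in the Cre- table, at 0.60 to 1.51 in the pull-downs and at most 0.17 in the inputs, and none is listed in the Cre+ table. The endothelial sum, over 5 of 6 markers, was 118 to 561 in the Cre+ pull-downs, with a median of 156. In the Cre+ inputs it was 51.6 to 96.0, with a median of 70.5. It was 21.4 to 144 (median 25.5) in the Cre- pull-downs and 70.7 to 95.4 (median 78.5) in the Cre- inputs. Of 5 endothelial markers tested in Cre+ 2 were enriched, Tek (3.98, FDR 0.0837) and Flt1 (2.83, FDR 0.0949), beside 5.17% of all genes. In Cre- 0 of the 4 tested were called by edgeR's quasi-likelihood test, beside 12.0% of all genes. The part of these cells in the levels of Runx1, Runx3 and Maf was not tested.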

How the data were processed

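Per the study's methods, the authors aligned reads to mm10 with STAR and counted uniquely mapped read fragments per gene with HTSeq on the refSeq refFlat annotation. The deposited counts are whole and not normalized, and are raw values of 12 libraries. The deposited FPKM is the authors' mean over the libraries of a table and served here only as a filter (mean above 1). The tables also hold the authors' fold changes and p-values, and 9 further columns of per-sample values in each table, none of which were used. The labels name CASAVA 1.8.2 and edgeR among the tools. The names of the Cre+ pull-down columns resemble the titles of the Cre- pull-downs, so these columns were assigned as a group, by the table named in the sample descriptions, and their numbers only tell libraries apart. Nothing in the labels or methods gives a batch within the experiment. Counting is not stated to use strand, so reads of antisense genes cannot be separated.

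The quasi-likelihood test of edgeR 4.0.16 in R 4.3.3 (TMM, glmQLFit, glmQLFTest) was run on the 6 libraries of each genotype without a block, and the difference of both in all 12 libraries on genes of both tables with a mean FPKM above 1 in either. Benjamini-Hochberg adjustment (FDR) ran over all genes tested. A gene counted as called where its FDR was under 0.1 and its fold at least 2. Standard errors are the fold change divided by the square root of F, and 95% intervals use 1.96 standard errors. The scripts were tested on simulated counts. Replicates differed beyond counting noise in all pairs. Alternatives were DESeq2 1.42.0, edgeR's exact test, scaling by library size, other filters (none, or 10 counts in 3 samples), one fit of 12 samples, a replicate block and each library left out. The factors, lists and rules for naming genes (all factors, the called genes of each list and up to 4 examples) were chosen with earlier results of these data known. Lists are described by counts and medians, with no set test. Some called genes of the lists are counted there and not reported here by name. Transcript lengths and exon overlaps came from GENCODE M21, positions and promoters from RefSeq, all on GRCm38. Figures were drawn with matplotlib 3.10.9.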

Additional observations from a re-analysis of the deposited data

Results flagged for a closer look

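For 2 of the 7 factors tested the enrichment in the pull-down differed between the genotype labels in the test of the difference itself, beside 4.22% of all 9006 genes. Etv1 differed by -2.41 on the log2 scale (log2 fold change 0.24 for Cre+ and 2.69 for Cre-), and Runx1 differed by 1.54 (0.49 and -1.01). The call of Runx1 was lost without Cre- input replicate 2, Cre- input replicate 3 or Cre- pull-down replicate 3.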

How the results depend on the processing

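Among the factors, all of the calls that the alternatives changed belonged to Runx1, Prdm12, Shox2, Isl1 and Runx3, with the values given above. In the libraries labelled Cre+ none of the 7 was called under any alternative. In the libraries labelled Cre- the number called ranged from 2 without Cre- pull-down replicate 3 (Etv1 and Runx3) to 6 without Cre- pull-down replicate 1, against 5 in the main analysis, and for the difference from 1 to 4 when a library was left out, against 2. Over all genes, 686 were called in the libraries labelled Cre+, against 1671 with DESeq2, 1243 with edgeR's exact test and 2215 in one fit of 12 samples, and from 0 (without any 1 of the Cre+ inputs, where 1154 to 1419 genes had an unadjusted p under 0.05) to 1390 when a library was left out. In the libraries labelled Cre- 1382 were called, against 439 in one fit of 12 samples, and 1115 to 1882 when a library was left out. For the difference 380 were called, against 1042 with DESeq2, and 40 to 1423 when a library was left out. Scaling by library size alone moved the median log2 fold change of all genes from 0.08 to -0.36 (Cre+), from -0.04 to -0.27 (Cre-) and from 0.13 to -0.11 (difference), and the numbers enriched and depleted from 463 and 223 to 195 and 713 (Cre+), from 698 and 684 to 433 and 1249 (Cre-) and from 201 and 179 to 73 and 273 (difference). It reversed the sign of Etv1 (-0.22) and Prdm12 (-0.083) in Cre+ and of Maf (-0.19) in the difference. Left-out libraries reversed values near 0 that were not called. In Cre+, Etv1 ranged from -0.0046 (without Cre+ pull-down replicate 1) to 0.41, Pou4f1 from -0.48 to 0.067 (without Cre+ pull-down replicate 1) and Isl1 from -0.50 to 0.16 (without Cre+ pull-down replicate 2). The difference of Pou4f1 ranged from -0.34 to 0.21 (without Cre+ pull-down replicate 1). The difference of Maf ranged from -0.29 to 0.35. The cause was not tested. With the replicate number as a block in the libraries labelled Cre-, 1446 genes and 4 factors were called, and Shox2 was lost (1.29, FDR = 0.122). Each input was 10% of a lysate, so each pull-down shares its lysate with an input. Same-numbered Cre- pull-downs and inputs deviated together with r of 0.0716, 0.0308 and 0.133, and each library correlated best with its own number. That the numbers match the lysates is a hint from the data only. A block was not run in Cre+ or for the difference, since the Cre+ pull-down columns could be tied to their group and not to single samples, so their numbers were not used to pair. With 3 libraries a group, the low counts of Shox2, Pou4f2, Pou4f3 and Runx3 limit what could be detected. Labels do not say that libraries came from separate cultures beyond their pools of mice.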

Other observations

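Genes with the pattern most like that of each factor were ranked by Pearson's r of log2(normalized counts + 0.5) across the 12 libraries, over 9110 genes with a mean of at least 1 normalized count. The r describes libraries that share fraction and genotype, so it carries no p. The level of Etv1 was most like those of Fgf1 (r of 0.975), Dnm1 (0.967) and Lrrfip1 (0.966). The level of Runx3 was most like those of Osbpl6 (0.957), Jak1 (0.932) and Lcp1 (0.916). Runx1 was nearest to Ptbp3 (0.963), Syt6 (0.956) and Ano3 (0.948), and Prdm12 to Cpne8 (0.953), Tusc5 (0.952) and 4931429I11Rik (0.946). Pou4f1 was nearest to Sdc3 (0.978), Maf to LOC100503496 (0.951) and Isl1 to Epm2aip1 (0.905). Among the factors themselves, Etv1 varied with Runx3 (r of 0.819) and against Runx1 (-0.871) and Prdm12 (-0.770).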
